A study of Rattus norvegicus with 12 samples.

Results

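Respiratory complex I, the NADH dehydrogenase of the mitochondrial inner membrane, is described here through the genes whose symbol starts with Nduf. In the table of islet transcripts 42 of 17407 gene entries carried such a symbol, and 41 of them reached the mean scaled value of 1 needed for a test. The exception was the entry named Ndufs6. The members were taken by symbol alone, but the gene family was chosen with earlier results of these data known.

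Islets came from 15-week-old Sprague-Dawley rat offspring, with 3 libraries in each of 4 groups named by the dam and by the pup's diet after weaning. In GDM-HFS the dam had gestational diabetes mellitus (GDM), brought on by feeding it much fat and sucrose (the HFS diet, 45% fat), and the pup ate HFS diet for 12 weeks; in GDM-LF the pup of such a dam ate low-fat (LF) diet. In Lean-HFS and Lean-LF the dam was lean and ate LF diet (10% fat), and the pup ate HFS or LF diet for those 12 weeks. There were 6 dams per diet, fed from 6 weeks before mating through suckling, and all were mated with males on LF diet. The labels name neither litter nor sex, so the p-values refer to the spread among these 12 samples, part of which may be technical. The first question is how GDM of the dam, and then how the weaning diet, related to transcripts of complex I in the islets of the offspring.

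Complex I passes electrons from NADH to ubiquinone and pumps protons out of the mitochondrial matrix. It has an arm that reaches into the matrix, where the electrons travel over flavin and iron-sulfur clusters, and an arm in the membrane that moves the protons. Core subunits do the catalysis, accessory subunits surround and stabilise them, and assembly factors build the complex without staying in it. In beta cells the respiratory chain links glucose oxidation to ATP and so to insulin secretion. The core subunits encoded in mitochondrial DNA were not analysed here, since none of the symbols searched for them matched an entry, and neither were Ndufa3, Ndufa13, Ndufb1, Ndufc1, Ndufaf2 and Ndufaf8.

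The libraries held 11469290 to 27492858 reads over genes. Reads of ribosomal RNA (rRNA) made up 1.84 to 4.34% of them in GDM-HFS and at most 8.55% in GDM-LF, against 24.7 to 39.0% in Lean-HFS and 1.84 to 30.4% in Lean-LF. A length measure, the median log2 deviation of transcripts under 1000 bases less that of transcripts over 4000 bases, averaged 0.48 ± 0.237 in GDM-HFS and 0.21 ± 0.318 in GDM-LF, against -0.20 ± 0.104 in Lean-HFS and -0.51 ± 0.373 in Lean-LF (SD, n = 3 each). Both measures moved with the dam, and the Nduf results are therefore also set against genes of similar length. Lean-LF 3 stood apart from the other Lean-LF libraries, with an rRNA share of 1.84% and a length measure of -0.08, against -0.72 and -0.73 in Lean-LF 1 and Lean-LF 2. The titles of GDM-HFS 3, GDM-LF 1 and GDM-LF 2 carry a letter K of no stated meaning where all others carry G. Endocrine markers summed to 1348000 to 2478000 scaled units in every library, the insulin genes among them, and markers of acinar cells, which secrete the digestive enzymes, to between 33040 and 813800.

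Averaged over both weaning diets, transcripts of complex I were mostly higher in offspring of GDM dams than in offspring of lean dams. Of the 41 tested Nduf genes 23 rose, 0 fell and 18 did not pass the threshold, an adjusted p of 0.05 over all 12339 tested genes. Over all tested genes 6.13% rose and 5.43% fell, so 756 rises stood beside 670 falls (429 and 245 when the deposited values were not rescaled). The median log2 difference was 0.54 for the Nduf genes and 0.03 for all tested genes. By any amount 38 of the 41 were higher, as were 52.7% of all tested genes. The genes that rose did so by 1.41 to 2.45-fold. By role, 12 of 16 membrane arm accessory subunits rose, 7 of 9 tested matrix arm accessory subunits, 2 of 7 core subunits, 1 of 6 assembly factors and 1 of 3 others. In 10 of the 41 genes all 6 GDM libraries lay above all 6 lean libraries, which was so for 2.8% of all tested genes. That share was not taken over genes of similar length. In these bulk samples, more cells of a type and more RNA per cell cannot be told apart.

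**Figure D1:**
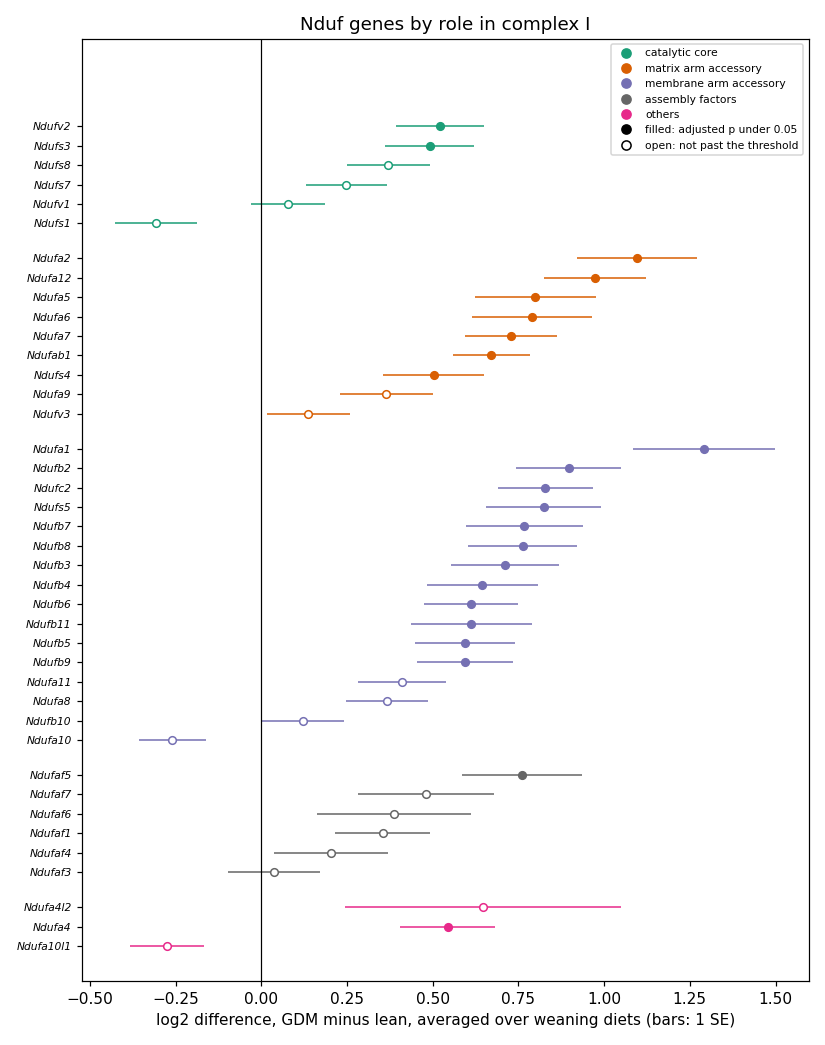
Log2 differences of 40 of the 41 tested Nduf genes between offspring of GDM dams and offspring of lean dams, averaged over weaning diets, with bars of 1 SE from limma over 12 libraries, grouped by role in complex I. Filled points passed an adjusted p of 0.05 (23 genes, all to the right of 0); the 3 genes left of 0 are Ndufs1, Ndufa10 and Ndufa10l1.

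Levels between genes were compared per kilobase of transcript. The median over the 41 genes was 341 scaled units per kilobase. Ndufa4 stood highest at 1506 and Ndufa1 next at 1486, and Ndufa4l2 lowest at 5.82. Membrane arm accessory subunits had a median of 643, matrix arm accessory subunits 371 and core subunits 294, with assembly factors at 55.8. Assembly factors thus ran lowest of the 4 classes as levels per kilobase, from 34.0 for Ndufaf7 to 112 for Ndufaf3, and the level of every one lay below that of every core subunit, the lowest of which was Ndufs1 at 184.

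Among the 7 core subunits, which carry the flavin and the iron-sulfur clusters, 2 rose, 0 fell and 5 did not pass, with a median log2 difference of 0.25. Ndufv2, an iron-sulfur subunit of the NADH-oxidising module (chromosome 9, 113404126 to 113424677, build rn5, the build of all positions given for values), had scaled values of 748, 707 and 872 in GDM-HFS and 504, 655 and 596 in GDM-LF, against 508, 560.4 and 464 in Lean-HFS and 361, 389 and 558 in Lean-LF. All GDM-HFS libraries lay above all Lean-HFS libraries, whereas Lean-LF 3 lay among the GDM-LF libraries. Ndufv2 rose 1.44-fold (log2 0.52 ± 0.128 SE, limma adjusted p = 0.0245). Ndufs3, which lies where electrons pass on towards ubiquinone (chromosome 3, 86430806 to 86437983), had 423, 398 and 452 in GDM-HFS and 344, 326 and 315 in GDM-LF, against 298, 278 and 268 in Lean-HFS and 210.1, 212 and 349.8 in Lean-LF. Again the HFS groups did not overlap and Lean-LF 3 lay above every GDM-LF library. Ndufs3 rose 1.41-fold (log2 0.49 ± 0.13 SE, limma adjusted p = 0.0316), but its entry overlaps that of Kbtbd4 and both strands were counted, so the reads of the 2 genes cannot be told apart. Ndufs8, an iron-sulfur subunit, had 222, 208 and 287 in GDM-HFS and 245, 252 and 187 in GDM-LF, against 198, 184 and 189 in Lean-HFS and 171, 150.0 and 183 in Lean-LF. Its GDM libraries lay above their lean counterparts on each diet, and the difference of 0.37 did not pass (limma adjusted p = 0.0635).

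Ndufs1, the largest core subunit and the carrier of several iron-sulfur clusters (chromosome 9, 69728934 to 69762079), went the other way without passing. It had 458, 534 and 356 in GDM-HFS and 379, 307 and 400.3 in GDM-LF, against 536, 459 and 496 in Lean-HFS and 524, 462 and 493 in Lean-LF. All GDM-LF libraries lay below all Lean-LF libraries, while GDM-HFS 2 lay within the Lean-HFS range. The log2 difference was -0.31 ± 0.12 SE (limma adjusted p = 0.103). Ndufs7, which helps form the ubiquinone site, had a log2 difference of 0.25, and Ndufv1, which binds NADH and flavin, one of 0.08. Neither passed.

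In the matrix arm, 7 of 9 tested accessory subunits rose, 0 fell and 2 did not pass, with a median log2 difference of 0.73. Ndufa2 (chromosome 18, 29289478 to 29291567), a small subunit with a thioredoxin-like fold, had 976, 784 and 1094 in GDM-HFS and 816, 634 and 611 in GDM-LF, against 397, 453 and 353 in Lean-HFS and 273, 284 and 556 in Lean-LF. Every GDM library lay above every lean library, and Lean-LF 3 was the highest of the lean ones. Ndufa2 rose 2.14-fold (log2 1.10 ± 0.175 SE, limma adjusted p = 0.00966), with the reservation that its entry overlaps Tmco6. Ndufa12 (chromosome 7, 35193809 to 35229887), which sits along the matrix arm, had 188, 195 and 245 in GDM-HFS and 125, 153 and 121 in GDM-LF, against 85.6, 112 and 88.8 in Lean-HFS and 73.2, 57.4 and 96.9 in Lean-LF. Its GDM and lean libraries did not overlap either, and it rose 1.96-fold (log2 0.97 ± 0.15 SE, limma adjusted p = 0.00966). Ndufa5 (chromosome 4, 51368669 to 51377022), an accessory subunit of the ubiquinone module, had 473, 461 and 489 in GDM-HFS and 326, 428 and 386 in GDM-LF, against 209.7, 336 and 257 in Lean-HFS and 171, 186 and 354 in Lean-LF. Here GDM-LF 1 lay below Lean-LF 3 and Lean-HFS 2. Ndufa5 rose 1.74-fold (log2 0.80 ± 0.177 SE, limma adjusted p = 0.0177).

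The other matrix arm genes that rose were Ndufa6 (log2 0.79), Ndufa7 (0.73), Ndufab1 (0.67) and Ndufs4 (0.50), the last known for the fatal mitochondrial disease that its loss causes in mice. Ndufa9 (0.36) and Ndufv3 (0.14) did not pass. Ndufab1, the mitochondrial acyl carrier protein (chromosome 1, 199106654 to 199120057), is also used in fatty acid synthesis inside mitochondria. It had 321, 292 and 412 in GDM-HFS and 323, 295 and 312 in GDM-LF, against 245, 222 and 234 in Lean-HFS and 160.0, 170.0 and 202 in Lean-LF. The lowest GDM library lay above the highest lean one, and within offspring of lean dams the HFS libraries lay above the LF ones. Ndufab1 rose 1.59-fold (log2 0.67 ± 0.112 SE, limma adjusted p = 0.0105). With a transcript of 2562 bases it is the longest of the tested Nduf genes. The entry named Ndufs6 held 0 to 1.40 scaled units per library. RefSeq (GRCr8) lists a pseudogene on chromosome 2, the chromosome of that entry, with Ndufs6 among its synonyms, so the entry is not read as a level of Ndufs6.

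Among the 16 accessory subunits of the membrane arm 12 rose, 0 fell and 4 did not pass, with a median log2 difference of 0.63. Ndufa1, a small single-pass membrane protein needed for assembly of the complex (chromosome X, 124598915 to 124602556), had 869.8, 1027 and 1118 in GDM-HFS and 789, 770.2 and 602 in GDM-LF, against 386, 424 and 339 in Lean-HFS and 203, 257 and 578 in Lean-LF. The GDM libraries all lay above the lean ones, and Lean-LF 3 was again the lean library nearest to them. Ndufa1 rose 2.45-fold (log2 1.29 ± 0.208 SE, limma adjusted p = 0.00966), the largest difference of the 41 genes. Ndufb2 (chromosome 4, 67185340 to 67192419), a small membrane arm subunit, had 606, 528 and 763 in GDM-HFS and 561, 489 and 422 in GDM-LF, against 347, 341 and 285 in Lean-HFS and 229.5, 225 and 385 in Lean-LF. Its groups did not overlap, and it rose 1.86-fold (log2 0.90 ± 0.153 SE, limma adjusted p = 0.0111). Ndufc2 (chromosome 1, 168576274 to 168582497), also a subunit of the membrane arm, had 667, 675 and 667 in GDM-HFS and 466, 538 and 466 in GDM-LF, against 304, 443 and 334 in Lean-HFS and 258, 240.5 and 399 in Lean-LF. Its GDM and lean libraries did not overlap and its 3 GDM-HFS values were close together, and it rose 1.77-fold (log2 0.83 ± 0.139 SE, limma adjusted p = 0.0105).

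The 9 further membrane arm genes that rose had log2 differences between 0.59 (Ndufb9) and 0.82 (Ndufs5, an intermembrane-space subunit). They included Ndufb3, Ndufb4, Ndufb5, Ndufb6, Ndufb7, Ndufb8 and Ndufb11. Ndufa11 (0.41), Ndufa8 (0.37) and Ndufb10 (0.12) were higher without passing. Ndufa10, a subunit with a nucleoside kinase fold on the matrix side of this arm (chromosome 9, 99282165 to 99316927), had 262, 235 and 254 in GDM-HFS and 206, 244 and 231 in GDM-LF, against 295, 289 and 318 in Lean-HFS and 286, 283 and 245 in Lean-LF. All GDM libraries on either diet lay below the lean libraries of the same diet, with a log2 difference of -0.26 ± 0.0974 SE that did not pass (limma adjusted p = 0.0927). Its entry overlaps Ppp1r7 and the entry named Ndufa10l1.

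**Figure D2:**
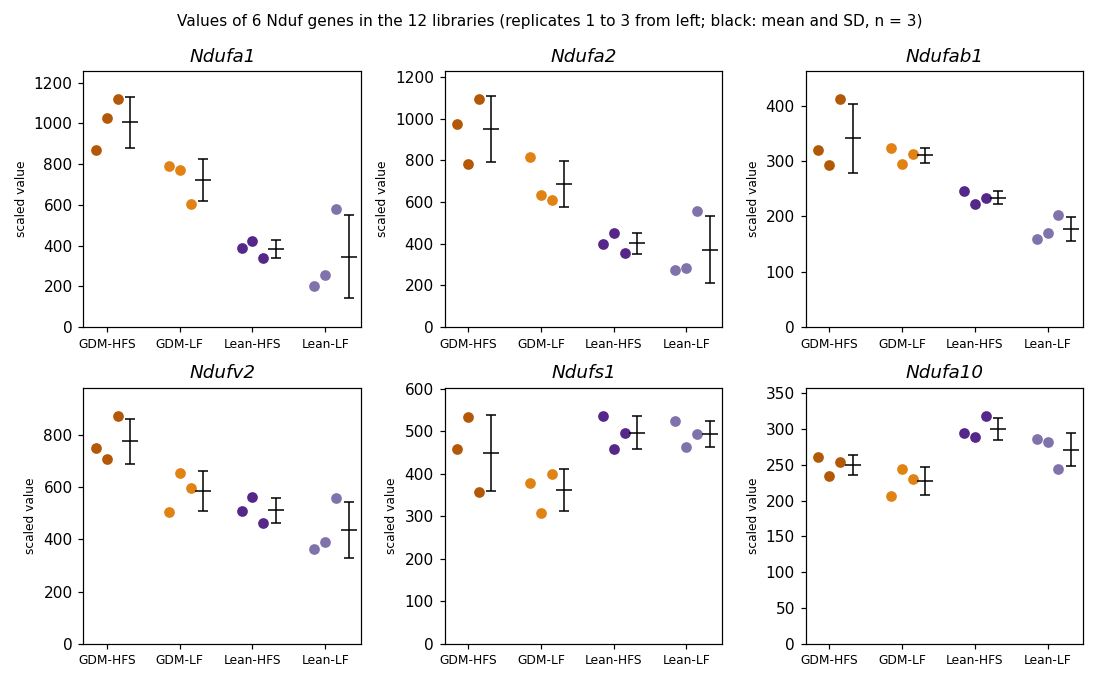
Scaled values of Ndufa1, Ndufa2, Ndufab1, Ndufv2, Ndufs1 and Ndufa10 in each of the 12 libraries, by group, with the mean and SD of 3 libraries in black; the axes start at 0. Ndufa1, Ndufa2 and Ndufab1 lie higher in all GDM libraries than in any lean one, and Lean-LF 3 is the highest Lean-LF library for each of these 3 genes.

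Assembly factors build the complex without staying in it, and 1 of 6 rose (median log2 difference 0.37). Ndufaf5 (chromosome 3, 139688332 to 139717718), which hydroxylates an arginine of NDUFS7 in human cells, had 96.2, 102 and 110.2 in GDM-HFS and 86.2, 104 and 97.0 in GDM-LF, against 53.8, 77.6 and 49.6 in Lean-HFS and 47.1, 46.5 and 84.1 in Lean-LF. Its lowest GDM library, GDM-LF 1, lay just above its highest lean library, Lean-LF 3. Ndufaf5 rose 1.69-fold (log2 0.76 ± 0.175 SE, limma adjusted p = 0.0204). Ndufaf7, a methyltransferase of the assembly pathway, had 85.1, 88.2 and 99.2 in GDM-HFS and 102, 93.8 and 84.5 in GDM-LF, against 51.1, 88.0 and 73.3 in Lean-HFS and 54.6, 43.9 and 100.4 in Lean-LF. Lean-HFS 2 and Lean-LF 3 lay among the GDM libraries, and the log2 difference of 0.48 did not pass (limma adjusted p = 0.123). Ndufaf6, a factor of early assembly, had 38.4, 54.8 and 68.6 in GDM-HFS and 50.4, 39.0 and 51.9 in GDM-LF, against 47.0, 34.6 and 38.7 in Lean-HFS and 38.3, 21.7 and 53.7 in Lean-LF. The groups overlapped on both diets, and its log2 difference of 0.39 did not pass either (limma adjusted p = 0.258). Ndufaf1 (0.35), Ndufaf4 (0.20) and Ndufaf3 (0.04) also did not pass.

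The remaining 3 symbols are not plain complex I subunits. Ndufa4 (chromosome 4, 38071073 to 38078241) was named as one but is now counted as a subunit of cytochrome c oxidase. It had 1780, 1474 and 1433 in GDM-HFS and 1259, 1129 and 1243 in GDM-LF, against 1172, 1063 and 907 in Lean-HFS and 737, 711 and 1169 in Lean-LF. The HFS groups did not overlap, and Lean-LF 3 lay between GDM-LF 2 and the other GDM-LF libraries. Ndufa4 rose 1.46-fold (log2 0.54 ± 0.139 SE, limma adjusted p = 0.028). Ndufa4l2, a related gene induced by hypoxia, was low in all groups but for 1 library, with 6.07, 3.23 and 4.04 in GDM-HFS and 21.1, 3.93 and 4.95 in GDM-LF, against 4.93, 2.39 and 6.83 in Lean-HFS and 2.93, 1.3 and 3.66 in Lean-LF. GDM-LF 1 alone stood high, and the log2 difference of 0.65 did not pass (limma adjusted p = 0.291). The entry named Ndufa10l1 lies inside that of Ndufa10 on chromosome 9 of rn5, whereas RefSeq (GRCr8) places the gene of that name on chromosome 6. Its values, 228, 197 and 214 in GDM-HFS and 174, 214 and 191 in GDM-LF, against 249, 252 and 281 in Lean-HFS and 257, 238 and 199 in Lean-LF, followed those of Ndufa10 (log2 -0.28, limma adjusted p = 0.104), and it is not an independent gene in these data. Without it 23 of 40 genes rose.

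Promoters are shown for 3 genes that rose and stayed past the threshold under the length correction described further on (Ndufa1, Ndufa2 and Ndufab1), and for Ndufs1, the gene with the lowest log2 difference. The windows run from 250 bases before to 50 after the start of the gene in RefSeq (build GRCr8), 5′ to 3′ in the direction of the gene, with matches to 4 short motifs in capitals. The positions are chrX:121293506-121293805, minus strand for Ndufa1, chr18:28631835-28632134, minus strand for Ndufa2, chr1:186089287-186089586, minus strand for Ndufab1 and chr9:72073556-72073855, minus strand for Ndufs1.
Ndufa1: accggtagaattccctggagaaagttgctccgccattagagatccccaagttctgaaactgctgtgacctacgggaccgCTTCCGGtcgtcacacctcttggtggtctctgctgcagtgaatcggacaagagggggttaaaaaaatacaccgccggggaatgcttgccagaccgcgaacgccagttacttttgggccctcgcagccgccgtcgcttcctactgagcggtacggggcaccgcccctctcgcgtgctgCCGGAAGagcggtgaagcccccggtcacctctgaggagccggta
Ndufa2: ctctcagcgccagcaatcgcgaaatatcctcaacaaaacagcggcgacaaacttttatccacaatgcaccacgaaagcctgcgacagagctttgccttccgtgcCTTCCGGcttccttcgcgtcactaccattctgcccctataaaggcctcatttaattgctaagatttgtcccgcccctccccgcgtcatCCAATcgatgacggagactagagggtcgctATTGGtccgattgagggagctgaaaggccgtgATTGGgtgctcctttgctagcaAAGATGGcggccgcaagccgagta
Ndufab1: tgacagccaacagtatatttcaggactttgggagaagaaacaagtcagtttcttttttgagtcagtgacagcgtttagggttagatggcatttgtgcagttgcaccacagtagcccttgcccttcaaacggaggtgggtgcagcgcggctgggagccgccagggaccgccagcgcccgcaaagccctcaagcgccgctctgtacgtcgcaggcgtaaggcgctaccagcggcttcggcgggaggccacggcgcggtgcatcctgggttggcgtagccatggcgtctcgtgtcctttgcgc
Ndufs1: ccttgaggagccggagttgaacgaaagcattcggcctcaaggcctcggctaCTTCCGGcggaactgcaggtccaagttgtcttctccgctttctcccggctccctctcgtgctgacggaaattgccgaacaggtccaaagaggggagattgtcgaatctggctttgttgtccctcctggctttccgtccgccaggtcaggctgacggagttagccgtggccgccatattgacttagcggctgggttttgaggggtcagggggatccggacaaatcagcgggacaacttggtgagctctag
The motifs, searched on both strands, were the NRF1 core (GCGCATG), the ETS core bound by GABP (CCGGAAG), the YY1 core (AAGATGG) and the CCAAT box (CCAAT), all known from promoters of nuclear genes for mitochondrial proteins. Ndufa1 held 2 ETS cores and Ndufa2 an ETS core, a YY1 core and 3 CCAAT boxes, while none of the 4 was in the Ndufab1 window and Ndufs1 held 1 ETS core.

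A promoter window was found for 36 of the 42 entries, 40 of which matched RefSeq by accession. The NRF1 core was in 6 of the 36 (16.7%), against 6.3% of the other tested genes and 5.0% of all genes of the table. The YY1 core was in 7 (19.4%), against 7.9% and 7.4%, and the ETS core in 7 (19.4%), against 16.9% and 12.9%. The CCAAT box was in 11 (30.6%), against 37.6% and 38.1%. In all 24 of the 36 windows held at least 1 of the motifs. Matches to different motifs overlapped in 0 windows, and in 4 windows NRF1 cores of both strands overlapped each other. These are matches of letters, described without a test.

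Transcript length ran with the size of the difference. Over the 41 Nduf genes the Spearman correlation between transcript length and log2 difference was -0.69, and over all tested genes it was -0.397; both are across genes that share the same 12 libraries. Nduf transcripts were short, with a median of 779 bases against 2118 for all tested genes. Under 1000 bases 18 of 24 Nduf genes rose, and at 1000 bases or more 5 of 17 did, namely Ndufab1, Ndufaf5, Ndufb5, Ndufs3 and Ndufs4. The median length was 623 bases for those that rose and 1426 for those that did not pass.

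Other genes of the same length were also higher in offspring of GDM dams, and the share that rose was lower than among Nduf genes in 5 of 6 bands. Between 500 and 750 bases 11 of 16 Nduf genes rose (median log2 0.74), against 30.6% of 438 other genes (median 0.48). Below 500 bases all 4 rose (median 0.81), against 38.7% of 243 others (median 0.77). Between 750 and 1000 bases 3 of 4 rose (0.58), against 19.6% of 629 others (0.36). Between 1000 and 1500 bases 4 of 10 rose (0.38), against 9.21% of 2095 others (0.22), and between 1500 and 2500 bases 0 of 6 (0.17), against 3.34% of 3983 others (0.04). Above that Ndufab1 stood alone at 0.67, against a median of -0.15, with 1.14% risen, among 4910 others. The shares are described without a test.

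Each Nduf gene was then set against the 501 other tested genes nearest to it in length. Of the 41, 30 had a larger log2 difference than the median of those genes and 11 a smaller one, with a median excess of 0.18. Their median percentile among those neighbours was 64.9. Ndufab1 exceeded the median of its neighbours by 0.70 (percentile 90.4) and Ndufa1 by 0.65 (89.8). Ndufa2 exceeded it by 0.52, Ndufaf7 by 0.50 and Ndufaf5 by 0.47. The excess of Ndufab1, and its length correction, take the listed 2562 bases as the length of the expressed transcript, which was not tested. Per kilobase Ndufab1 stood lowest of the matrix arm accessory subunits, at 104 against a median of 371. Core subunits did not stand above their neighbours, with 3 of 7 higher and a median difference of -0.06. The matrix arm accessory subunits stood higher in 8 of 9 cases (median 0.21), and those of the membrane arm in 12 of 16 (median 0.20). Ndufa10l1 lay 0.44 below its neighbours, Ndufb10 0.32, Ndufs1 0.27 and Ndufa10 0.27.

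**Figure D3:**
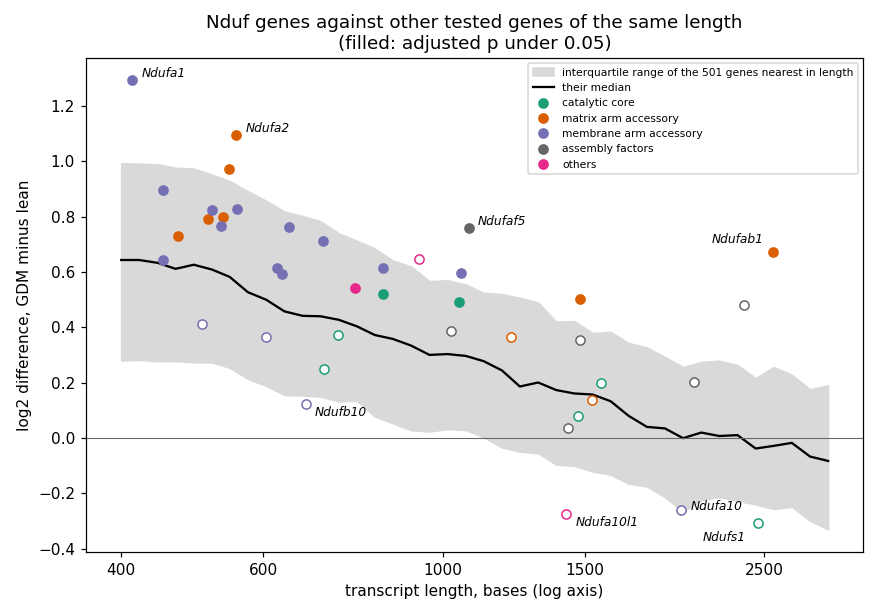
Log2 difference of each tested Nduf gene (GDM minus lean, averaged over diets) against transcript length in bases on a log axis; the black line is the median and the grey band the interquartile range of the 501 other tested genes nearest in length, and filled points passed an adjusted p of 0.05. The line falls with length, and 30 of the 41 Nduf genes lie above it, Ndufab1 at 2562 bases among them.

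When the trend of log2 values with length was removed from each library before the fit, 3 Nduf genes rose, 1 fell and 37 did not pass, against 1.9% risen and 2.58% fallen among all tested genes. The median log2 difference became 0.15. The 3 were Ndufab1 (log2 0.73 ± 0.111 SE, limma adjusted p = 0.0301), Ndufa1 (0.55 ± 0.139, 0.0443) and Ndufa2 (0.50 ± 0.13, 0.0472). The gene that fell was the entry named Ndufa10l1 (-0.42 ± 0.108, 0.0456), whose reads are those of the Ndufa10 locus, and Ndufa10 itself stood at -0.27 (limma adjusted p = 0.0938). By role the medians were 0.19 for the matrix arm, 0.17 for the membrane arm, 0.22 for assembly factors and -0.06 for the core. In 8 genes the sign changed, among them Ndufb4, which had passed without the correction.

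**Figure D4:**
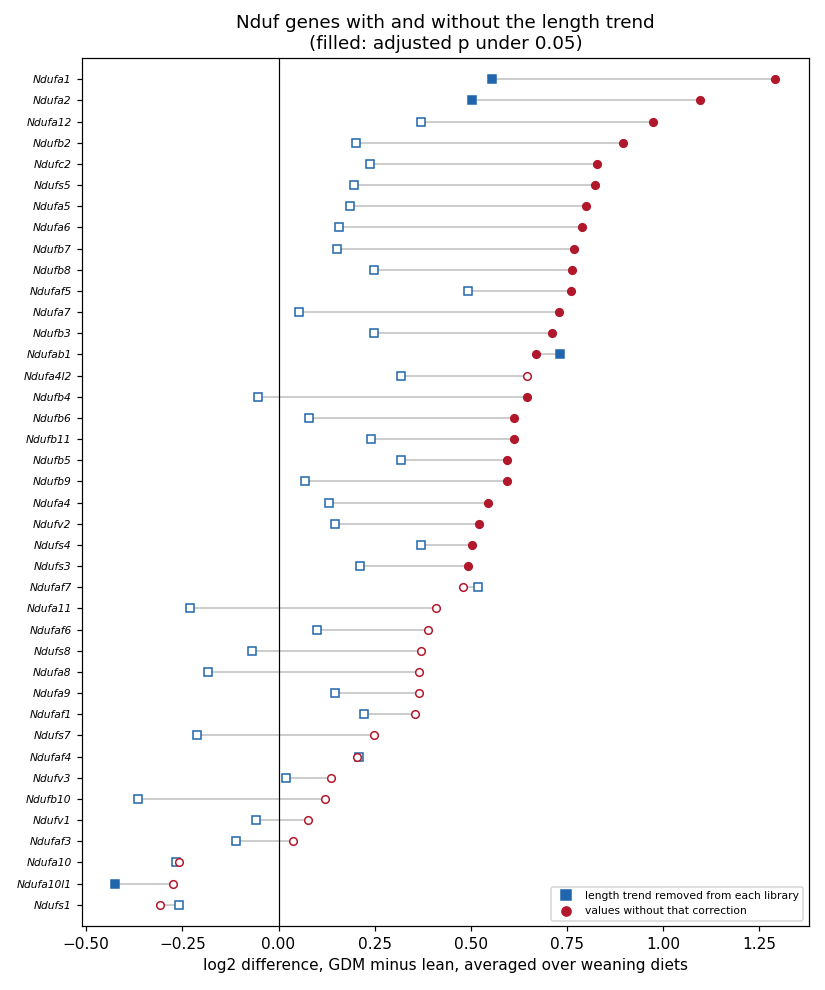
Log2 differences of 40 of the 41 tested Nduf genes (GDM minus lean, averaged over weaning diets) as fitted (circles) and after the trend with transcript length was removed from each library (squares); filled symbols passed an adjusted p of 0.05. Filled symbols number 23 as fitted and 4 after the correction, and Ndufab1 is the called gene whose value moved up, to 0.73.

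Taken as a group, the Nduf genes ordered the libraries much as other short genes did. The median deviation of the 41 genes from their own means was 0.38, 0.27 and 0.53 in GDM-HFS and 0.13, 0.19 and 0.07 in GDM-LF, against -0.14, -0.05 and -0.27 in Lean-HFS and -0.56, -0.68 and 0.03 in Lean-LF. Every GDM library stood above every lean one, the nearest pair being GDM-LF 3 and Lean-LF 3. Their share of the reads outside rRNA averaged 0.348 ± 0.0191% in GDM-HFS and 0.303 ± 0.0177% in GDM-LF, against 0.271 ± 0.0141% in Lean-HFS and 0.256 ± 0.0567% in Lean-LF (SD, n = 3 each). GDM-HFS had the highest mean of the 4 groups for 34 of 41 genes, and Lean-LF the lowest for 32. These groups also had the highest and the lowest mean length measure. Within Lean-LF, replicate 3 was the highest library for 35 genes, and within GDM-HFS replicate 3 was the highest for 29. None of these orders was counted over all tested genes.

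**Figure D5:**
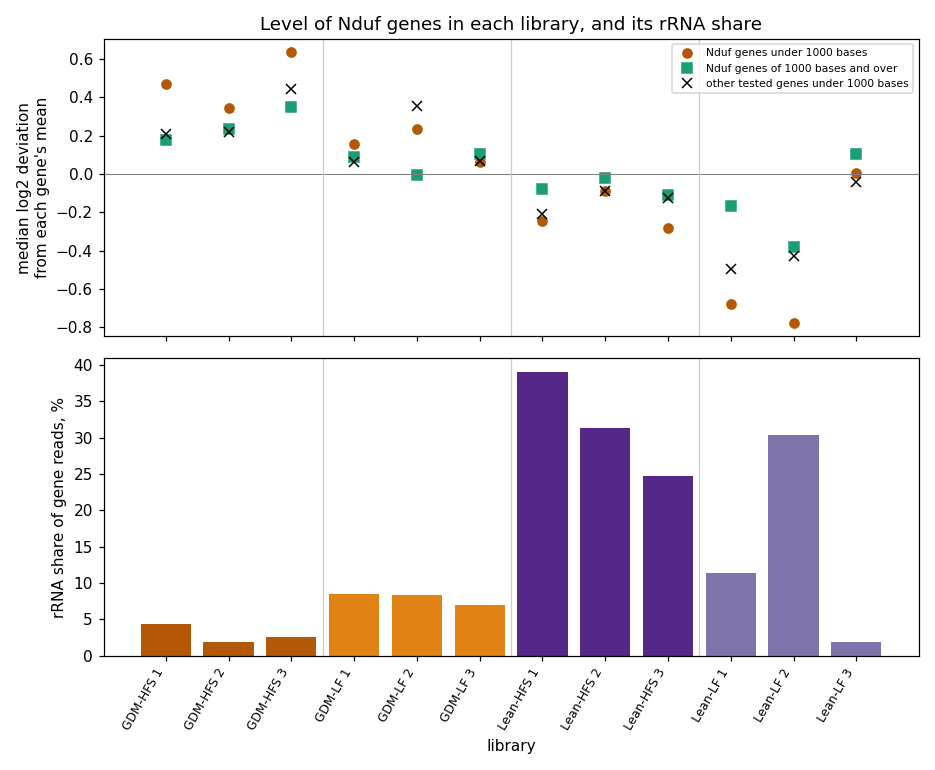
Upper panel, median log2 deviation from each gene's mean over 12 libraries for Nduf genes under 1000 bases (circles), Nduf genes of 1000 bases and over (squares) and other tested genes under 1000 bases (crosses); lower panel, the rRNA share of gene reads in percent, with bars from 0. Nduf genes under 1000 bases run from -0.78 in Lean-LF 2 to 0.63 in GDM-HFS 3, and Lean-LF 3, at 0.01, pairs a low rRNA share with the highest lean level.

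The call of 23 genes rested on particular libraries. Without Lean-LF 3 the count was 31 (29 higher and 2 lower), where 9.81% of all tested genes rose and 10.2% fell. Without Lean-LF 1 it was 7 and without Lean-LF 2 likewise 7, where 1.24% and 1.09% of all tested genes rose. Without GDM-HFS 3 it was 10 (1.85% of all tested genes rose) and without Lean-HFS 1 it was 11 (2.03%). The calls over all tested genes thus moved with the same libraries. In all 12 fits that each left out 1 library, 7 genes passed every time, namely Ndufa1, Ndufa2, Ndufa7, Ndufa12, Ndufab1, Ndufb2 and Ndufc2. Without the K libraries, all from offspring of GDM dams, the median log2 difference was 0.50. GDM-LF was then a single library, assumed to vary like the other groups, so calls in that fit are not read. Whether the 23 calls hold without the K libraries cannot be told. With the level of Rn45s, an rRNA precursor, as a covariate the median was 0.24 and 0 genes passed in limma, as did 0 of all tested genes.

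Few cell type markers passed the test, in which 6.13% of all tested genes rose and 5.43% fell. Of 8 tested endocrine markers 6 were higher and 1 rose (Ppy, log2 1.61, limma adjusted p = 0.0238). With the length trend removed Ppy did not pass (limma adjusted p = 0.173). Among acinar markers 1 rose (Try4, log2 3.15, limma adjusted p = 0.0233). Try4 also passed with the length trend removed (log2 2.755, limma adjusted p = 0.0493). Of the 30 tested acinar markers 28 were higher, with a median log2 difference of 1.03. They summed to 127700 to 262900 in GDM-HFS and 45700 to 813800 in GDM-LF, against 50480 to 275600 in Lean-HFS and 33040 to 94830 in Lean-LF, and the trypsinogen gene Prss1 was at 4539 or more in every library. With the acinar level as a covariate 13 Nduf genes rose, where 2.03% of all tested genes did (251 genes), and the median log2 difference of the 41 was 0.59. Of 13 tested duct markers 11 were higher and 1 rose (Car2), and of 12 endothelial markers 8 were lower and 2 fell (Kdr and Eng). Among erythrocyte markers 1 of 5 tested rose (Hba-a1), and 0 of the tested macrophage (12), stellate and fibroblast (9) and muscle and adipocyte (3) markers passed. Of the 7 muscle and adipocyte markers Ucp1 and Myh7 were at 0 in every library, and Plin1 and Ckm were at most 0.753 and 0.576. Adipoq was at most 2.53, Fabp4 lay between 12.1 and 73.0 (log2 0.97, limma adjusted p = 0.057) and Acta1 between 8.14 and 117.9 (log2 -0.69). The part of duct, endothelial and red cell RNA, and of the mix of endocrine cells, in the Nduf result was not tested.

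The dam's effect was then read on each weaning diet. On HFS diet 0 of 41 Nduf genes passed in limma, where 0.0081% of all tested genes did, and 26 had an unadjusted p under 0.05, as had 1758 of all tested genes. The smallest adjusted p was 0.182. DESeq2 on the recovered reads called 10 of the Nduf genes, all higher, where 2.78% of the 7054 genes with an adjusted p rose, and edgeR called 0. In limma without Lean-LF 3 the count was also 10, where 1.02% of all tested genes rose. The median log2 difference was 0.55, against -0.01 for all tested genes. In 31 of the 41 genes all GDM-HFS libraries lay above all Lean-HFS libraries (12.7% of all tested genes, not matched for length). The median was 0.22 with the length trend removed and 0.10 with Rn45s as a covariate. Ndufa1 had the largest difference at 1.39 ± 0.294 SE, followed by Ndufa2 at 1.24 and Ndufa12 at 1.12.

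On LF diet 1 Nduf gene rose, Ndufab1 (log2 0.81 ± 0.159 SE, limma adjusted p = 0.0477), where 0.851% of all tested genes rose. In all 25 had an unadjusted p under 0.05, as had 3278 of all tested genes; edgeR called 0. DESeq2 called 12, all higher, where 7.83% of the 11813 genes with an adjusted p rose. The median log2 difference was 0.54, against 0.05 for all tested genes, and it was 0.08 with the length trend removed, against 0.02 for all tested genes. In 16 of 41 genes all GDM-LF libraries lay above all Lean-LF libraries (12.9% of all tested genes). With Lean-LF 3 left out, 23 Nduf genes rose (6.78% of all tested genes) and 33 of 41 did not overlap (23.8% of all tested genes). These shares over all tested genes were not matched for length. The call of Ndufab1 was absent when any other single library was left out, except GDM-LF 3, whose omission gave 10 calls (7.28% of all tested genes rose). Ndufa1 stood at 1.20 and Ndufa2 at 0.95, neither past the threshold.

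The weaning diet was compared next. Averaged over dams, 0 of 41 Nduf genes passed (limma, 0% of all tested genes), 14 had an unadjusted p under 0.05 as had 611 of all tested genes, and the smallest adjusted p was 0.884. The median log2 difference of HFS minus LF was 0.27, against -0.01 for all tested genes. By any amount 38 of 41 were higher, as were 48.8% of all tested genes. The length measure was also higher on HFS than on LF diet, at 0.48 in GDM-HFS against 0.21 in GDM-LF and at -0.20 in Lean-HFS against -0.51 in Lean-LF. With the length trend removed the median of the 41 was 0.12, and it was 0.18 in offspring of GDM dams and 0.05 in offspring of lean dams. The largest of the single-gene differences was that of Ndufa12 (0.50 ± 0.15 SE), followed by Ndufb3 (0.45). In offspring of GDM dams 0 genes passed (limma, 0% of all), 7 had an unadjusted p under 0.05 as had 1188 of all tested genes, and the median was 0.30. In offspring of lean dams 0 passed (limma, 0% of all), 1 had an unadjusted p under 0.05 (Ndufab1, 0.40) as had 269 of all tested genes, and the median was 0.21. That last median was 0.10 without Lean-LF 2 and 0.45 without Lean-LF 3. Without rescaling of the deposited values it was -0.16, where the median of all tested genes was -0.35. edgeR and DESeq2 called 0 Nduf genes in all 3 comparisons.

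The interaction, the dam's effect on HFS diet less that on LF diet, passed for 0 Nduf genes (limma, 0% of all tested genes; edgeR and DESeq2 0). Ndufv3, a small subunit of the NADH module, was the 1 gene with an unadjusted p under 0.05 (log2 0.57 ± 0.241 SE, limma adjusted p = 0.784), as had 730 of all 12339 tested genes, so that the Nduf genes did not exceed the share over all genes. It had 659, 658 and 747 in GDM-HFS and 473, 436 and 611 in GDM-LF, against 586, 547 and 421 in Lean-HFS and 514, 553 and 603 in Lean-LF. The GDM-HFS libraries were the highest, and GDM-LF 1 and GDM-LF 2 lay below all Lean-LF libraries. The median interaction over the 41 genes was 0.07, against -0.01 for all tested genes. Its sign was not stable: it was -0.13 without Lean-LF 3, 0.22 without Lean-LF 2, -0.0031 without GDM-HFS 3, -0.07 with library weights and -0.30 with Rn45s as a covariate. Without rescaling it was 0.52, where the median of all tested genes was 0.42. Ndufa4l2 had the lowest interaction at -1.34 ± 0.803 SE, through GDM-LF 1. These intervals are wide, and a difference between diets in the dam's effect was not detectable with 3 libraries per group.

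Genes of the same pathway that do not carry an Nduf symbol had smaller median differences, described without a test. Their transcripts were also longer, and the medians given here are not corrected for length. Assembly factors and partners ran from 840 to 2423 bases and regulators from 1230 to 4814, against an Nduf median of 779. Of 10 tested assembly factors and partners 2 rose, 0 fell and 8 did not pass (median log2 0.12), where 6.13% of all tested genes rose. The 2 were Tmem126b (0.64, limma adjusted p = 0.0244), a membrane arm assembly factor, and Lyrm2 (0.55, limma adjusted p = 0.0309). Neither passed with the length trend removed (limma adjusted p = 0.186 and 0.0616). Of 10 tested regulators of mitochondrial genes 0 rose, 1 fell and 9 did not pass (median -0.09), where 5.43% of all tested genes fell. The one that fell was Ppargc1a, the coactivator PGC-1alpha, with 19.9 ± 2.21 in GDM-HFS and 19.0 ± 9.29 in GDM-LF, against 35.6 ± 9.77 in Lean-HFS and 35.4 ± 5.08 in Lean-LF (SD, n = 3 each; log2 -0.87, limma adjusted p = 0.0339). It had an adjusted p of 0.0605 in limma with the length trend removed. Tfam, which packages mitochondrial DNA (log2 0.27), Nrf1 (0.24), Gabpa (-0.26) and Yy1 (-0.03) did not pass.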

How the data were processed

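Islets of 12 rat offspring were picked by hand, rRNA was depleted and strand-specific libraries were sequenced, per the labels' protocols. The submitters' processing notes name STAR 2.5.1b, HOMER 4.9 and DESeq2. Per the file headers, the deposited table is a signal over exons on build rn5, with both strands together and 1 entry per gene. The header names FPKM, but every value is a whole multiple of 1 step per library, with no division by length. Divided by it, 100% of the values of at most 1000 reads came within 0.1 of a whole read, and a unit stood for 1.96 to 5.02 reads. The test planned for FPKM was kept. The counting of reads that fit several places is not stated.

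Each library was divided by its median ratio to the geometric means of 11337 genes (factors 0.827 to 1.27). The fit used log2 of the scaled value plus 1 and limma 3.58.1 (R 4.3.3), with 4 group means, a mean-variance trend and Benjamini-Hochberg adjustment over 12339 genes in each of 7 contrasts. Log2 differences understate changes of low genes. edgeR 4.0.16 and DESeq2 1.42.0 were run on the recovered reads. The length trend was a local regression of a library's log2 deviations on log2 length. These steps were also run on simulated counts with a fixed spread, no outlying library and no rRNA difference. That run does not show how the calls hold in libraries like these. Values per library are given for the 3 highest and up to 3 negative log2 differences in each role class, and for Ndufab1 and Ndufv3, singled out after their values were seen. The members and lists were chosen with earlier results of these data known. The values of 1 tested gene are not reported here singly; it is kept in the counts and medians.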

Additional observations from a re-analysis of the deposited data

How the results depend on the processing

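With GDM of the dam, averaged over diets, 23 Nduf genes rose, where 756 of all genes did. The count became 13 with acinar markers as a covariate (251 rose over all genes) and 15 without the mean-variance trend (413). It was 4 after removal of the length trend (3 higher, 1 lower, against 234 and 318 over all genes). With Rn45s as a covariate it was 0, as over all genes. Leaving out 1 library gave 7 to 31, where 135 to 1210 of all genes rose. Other scalings, pseudocounts, filters, library weights, edgeR and DESeq2 gave 16 to 31, where 429 to 1271 of all genes rose and 245 to 1297 fell. The median log2 difference of the Nduf genes, 0.54, was 0.15 after removal of the length trend, 0.24 with Rn45s and otherwise 0.48 to 0.65. On LF diet the single call was lost (0) without rescaling, with a pseudocount of 5, no filter, no trend or edgeR. It was also lost on removal of the length trend and with either covariate. Library weights gave 21 (884 higher over all genes), DESeq2 12 and leaving out 1 library 0 to 23. Without the K libraries, with GDM-LF a single library, only the median log2 difference on LF diet is given, 0.50. On HFS diet the count of 0 became 6 with library weights (44 higher over all genes), 10 with DESeq2 and 0 to 10 without 1 library. The diet and interaction counts were 0 under every alternative run. Over all genes DESeq2 called 2237, against 1426 in limma. No cause was tested.

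Replicate numbers are shared by the groups but did not pair the libraries: 5 of 18 same-number correlations exceeded 0.1 (range -0.499 to 0.201). With the replicate number as a block 22 Nduf genes rose on average and 0 on LF diet, where 638 and 0 of all genes rose.

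Some log2 differences changed sign. After removal of the length trend Ndufb10 stood at -0.37, Ndufa11 at -0.23, Ndufs7 at -0.21, Ndufa8 at -0.18, Ndufaf3 at -0.11, Ndufs8 at -0.069, Ndufv1 at -0.058 and Ndufb4 at -0.052. With Rn45s as a covariate Ndufaf6 stood at -0.11, Ndufaf3 at -0.097, Ndufaf7 at -0.094 and Ndufv1 at -0.012. Ndufaf3 stood at -0.011 in edgeR and ran from -0.026 (without Lean-HFS 1) to 0.129 when 1 library was left out.

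Of the 41 genes 40 had 50 to 7923 reads per library, and Ndufa4l2 had 3 to 56. The effect of depth on the calls was not tested.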
